A study of Homo sapiens with 6 samples.

Results

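The outermost stretches of the human chromosomes were examined for open chromatin in 6 established human cell lines of T-ALL (acute lymphoblastic leukaemia of the T lineage), in which immature T cells grow as a cancer. ATAC-seq inserts sequencing adapters into accessible DNA with the Tn5 transposase, so that reads pile up where chromatin is open. Overlapping ATAC-seq peak intervals of all 6 lists on chromosomes 1 to 22 were joined into merged regions. A region was taken as lying near a chromosome end when its midpoint was within 2 Mb of the lowest or highest peak coordinate of that chromosome. The lower ends of chromosomes 13, 14, 15, 21 and 22 were left out, because these acrocentric chromosomes carry repetitive DNA there. The rule left 39 ends, which held 1920 of 38977 merged regions (4.93%). The choice used positions only, so that sharing, width and peak height were measured independently of it. The lines were TALL-1, CCRF-CEM, MOLT-4, DND-41, KOPT-K1 and HBP-ALL, all grown in the same medium, with no drug or genetic change named in the labels and 1 library each. The ends were compared with the rest of the same 22 chromosomes within each library.

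Human telomeres are caps of short repeats, and the subtelomeres next to them hold duplicated sequence shared among chromosomes. Further inward, many terminal bands are rich in genes and in G and C bases, whereas others are poor in genes. Telomeric chromatin can silence neighbouring genes, which is known as the telomere position effect. Several loci known from T cells and leukaemia lie in terminal bands. RefSeq's GRCh38.p14 gene table places NOTCH1, a receptor often mutated in T-ALL, in the outer stretch of the long arm of chromosome 9. The same table puts CD7, a surface marker of T cells, near the end of 17q and TERT, the catalytic subunit of telomerase, near the end of 5p. It also puts IRF4, a lymphoid transcription factor, near the end of 6p, TCF3, an early lymphoid factor, near that of 19p, and CHL1 and CNTN6, neural cell adhesion genes, near that of 3p. These names describe the chromosome bands only. The peaks are in build hg19, and no gene annotation of that build was used here, so no region is assigned to a gene and no sequence is shown.

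The lists held between 16039 and 21671 intervals per line on chromosomes 1 to 22. Read totals are not known here. The tags stacked at a summit (the pileup) and the local background at the same place were recovered from the authors' values for 99.9% or more of the intervals of each line. Pileups and −log10 p depend on the depth of a library, so raw values given side by side for several lines show each list's own peak and not a difference between lines. With 1 library per line there is no spread between replicates of a line. The tests below are exact sign-flip permutation tests over the 6 lines, 2-sided, of the difference between ends and rest within each library. Their smallest possible p is 0.03125, reached when all 6 lines move the same way, and p-values were adjusted by the Benjamini-Hochberg method over the 8 measures tested. The p-values measure how far the 6 libraries moved alike, not the error of any 1 line.

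Peaks were crowded near the chromosome ends in every line. The ends took up 78.0 Mb, or 2.80% of the span between the outermost peaks, and held 5.79% ± 0.63 of a line's intervals (SD, n = 6 lines). CCRF-CEM had 1020 intervals there, 4.71% of its own total, with an exact (Clopper-Pearson) 95% interval of 4.43% to 4.997% that covers counting error only. TALL-1 had 1029, or 6.42% (6.04% to 6.81%), which was the highest share. Between these lay HBP-ALL with 1177 intervals (5.50%), DND-41 with 996 (5.74%), KOPT-K1 with 1073 (6.11%) and MOLT-4 with 1165 (6.27%). Such intervals treat the peaks of a list as independent and hold no spread between libraries. With 1 library per line, the shares of the lines were not tested against each other.

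Expressed per length, the 6 lines averaged 13.8 ± 0.99 intervals per Mb at the ends and 6.52 ± 0.84 in the rest (SD, n = 6). The mean ratio was 2.13-fold, or 1.09 ± 0.17 on the log2 scale, and it was above 0 in 6 of 6 lines (exact sign-flip permutation test, p = 0.03125, adjusted p = 0.0417). CCRF-CEM had the smallest ratio, with 13.1 intervals per Mb at its ends and 7.61 in its rest. TALL-1 had the largest, with 13.2 at its ends and 5.53 in its rest. Densities at the ends were lowest in DND-41 (12.8) and highest in HBP-ALL (15.1). The span of the rest includes centromeres and other stretches without any peak, which lowers its density. Each end begins at its outermost peak, so peak-free sequence beyond that peak is left out of the span of the ends, which raises their density. The size of both effects was not measured.

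**Figure D1:**
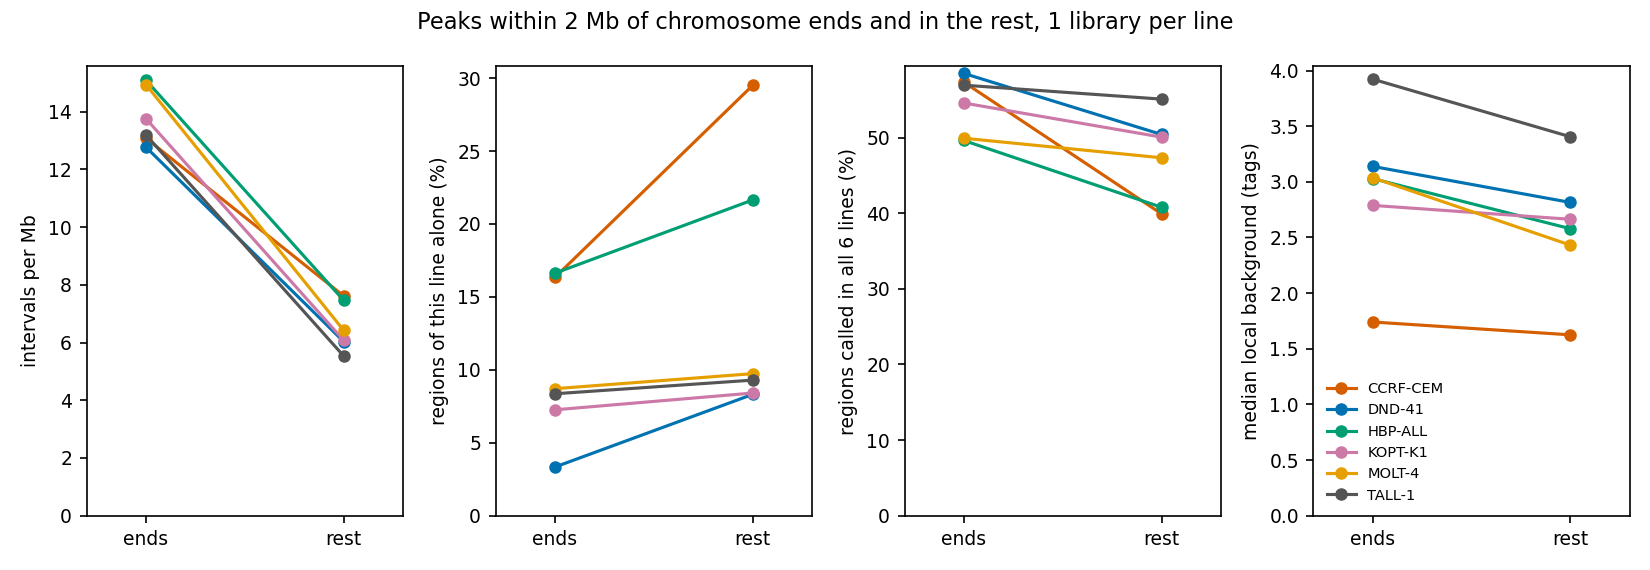
Values of each line within 2 Mb of the chromosome ends (left) and in the rest of chromosomes 1 to 22 (right), 1 library per line, joined by a line: intervals per Mb, percent of regions held by that line alone, percent called in all 6 lines, and median local background in tags. All 6 lines had 12.8 to 15.1 intervals per Mb at the ends, and the line-only share of CCRF-CEM was 16.3% at the ends and 29.5% in the rest.

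Regions near the ends were shared by more lines. Of the 1920 regions at the ends, 579 (30.2%, exact interval 28.1% to 32.3%) were called in all 6 lines, against 8187 of 37057 in the rest (22.1%). Over all merged regions of chromosomes 1 to 22 this share was 22.5%. Another 655 regions at the ends (34.1%) belonged to 1 line only, against 16183 in the rest (43.7%), and the share over all merged regions was 43.2%. Regions held by 2 lines made up 11.8% at the ends and 13.7% in the rest. Those held by 3, 4 and 5 lines made up 8.59%, 7.60% and 7.76% at the ends, against 7.96%, 6.08% and 6.47% in the rest. The shift was therefore from regions of 1 or 2 lines towards regions of 3 or more.

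The line-only share was lower at the ends in all 6 lines, but by unequal amounts. It was 16.3% at the ends of CCRF-CEM (165 regions) against 29.5% in its rest, and 3.33% at the ends of DND-41 (33 regions) against 8.31%. HBP-ALL had 16.6% at its ends (194 regions) and 21.6% in its rest. The other lines changed little: KOPT-K1 had 7.26% at its ends and 8.41% in its rest, MOLT-4 had 8.71% and 9.74%, and TALL-1 had 8.36% and 9.29%. The mean difference was −4.38 ± 4.72 percentage points (SD, n = 6; exact sign-flip permutation test, p = 0.03125, adjusted p = 0.0417), and the SD across lines was as large as the mean. Whether a region is line-only also depends on the lists of the other lines. The 6 values are therefore not independent, which the test does not take into account.

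The line-only result did not pass the test within chromosomes or within stretches of like peak density. Averaged over the difference within each chromosome it was −2.66 points (exact sign-flip permutation test, p = 0.0938). Averaged over 3 classes of region density, it was −2.39 points (exact sign-flip permutation test, p = 0.281). Density was the number of regions within 500 kb on either side, a window that runs past the outermost peak near an end and so counts fewer regions there. Within those classes CCRF-CEM still differed by −9.92 points and DND-41 by −4.50, while the other lines lay between −0.44 and 0.76. Of the regions at the ends, 57.3% fell in the densest class, against 28.3% of those in the rest. In that densest class 33.5% of regions at the ends were called in all 6 lines, against 28.9% in the rest. In the sparsest class these shares were 21.8% at the ends and 15.5% in the rest, and in the middle class 27.6% and 23.6%. The share called in all lines was thus higher at the ends in each class.

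Counted per line, the share of regions called in all 6 lines was 54.5% ± 3.9 at the ends and 47.3% ± 5.9 in the rest (SD, n = 6). The mean difference was 7.21 percentage points, and 4.58 points when taken within each chromosome and averaged. The share depends on all 6 lists together and was not tested. It was higher at the ends in each line with the intervals as deposited, most in CCRF-CEM with 57.3% at its ends against 39.9% in its rest, and least in TALL-1 with 56.9% against 55.1%. The region-wise Jaccard index, the regions called in both lines divided by those called in either, was higher at the ends for 15 of 15 pairs of lines. Its median was 0.572 at the ends and 0.497 in the rest. DND-41 and KOPT-K1 were the most similar pair in both, at 0.659 at the ends and 0.596 in the rest, and CCRF-CEM and HBP-ALL the least similar, at 0.483 and 0.398. The difference between ends and rest was largest for CCRF-CEM and DND-41 (0.125) and smallest for HBP-ALL and MOLT-4 (0.0498). Each line enters several of the 15 pairs, so the pairs are not independent. The index was not tested, and it was not taken within chromosomes or density classes.

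**Figure D2:**
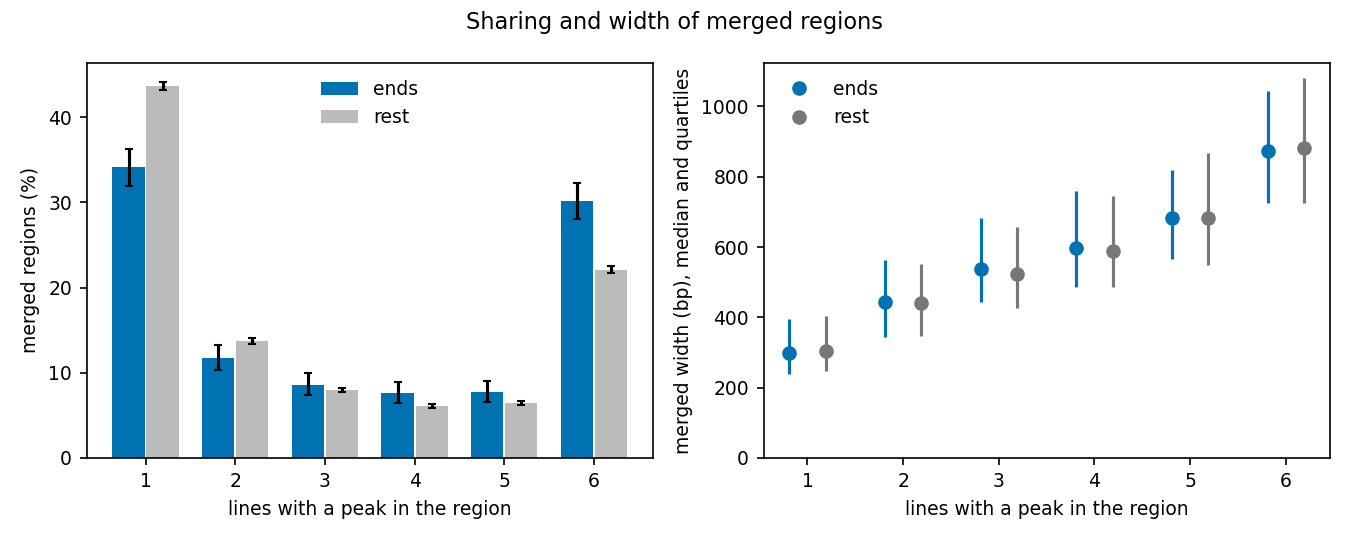
Left, percent of merged regions by the number of lines with a peak, at the ends (blue) and in the rest (grey), with exact 95% intervals. Right, median merged width in bp with quartiles for the same classes. Regions of all 6 lines made up 30.2% at the ends and 22.1% in the rest, and the widths of both sets lay close together within each class.

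Merged regions near the ends were wider as a set, with a median of 538 bp at the ends and 469 bp in the rest. Within each number of lines the medians were close. Line-only regions had a median of 299 bp at the ends and 304 bp in the rest, and regions of all 6 lines 872 bp and 883 bp. Regions of 3 lines had 538 bp at the ends and 522 bp in the rest. The widest region at the ends had 1985 bp, against 2948 bp in the rest. Neighbouring regions lay 20.9 kb apart in the median at the ends and 35.4 kb apart in the rest.

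The intervals of the single lists were also slightly wider near the ends. Their median width averaged 518.5 ± 33.5 bp at the ends and 497 ± 34 bp in the rest (SD over lines, n = 6), a 1.04-fold difference in the same direction in 6 of 6 lines (exact sign-flip permutation test, p = 0.03125, adjusted p = 0.0417). MOLT-4 had a median of 540 bp at its ends and 508 bp in its rest, and KOPT-K1 had 514 bp and 505 bp. Among peaks with a −log10 p of at least 10 the log2 difference was 0.035, against 0.061 for all peaks (exact sign-flip permutation test, p = 0.125), and averaged over chromosomes it was 0.041 (exact sign-flip permutation test, p = 0.0625), so that the call was lost in both. In regions called in all 6 lines alone it turned round, to −0.061 on the log2 scale (exact sign-flip permutation test, p = 0.0625). Intervals with several summits made up 19.8% ± 4.2 at the ends and 16.3% ± 4.0 in the rest, a difference of 3.50 ± 1.29 percentage points that was positive in all 6 lines (exact sign-flip permutation test, p = 0.03125, adjusted p = 0.0417).

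The local background was higher near the ends, and the fold over it lower. The median background averaged 2.94 ± 0.70 tags at the ends and 2.59 ± 0.58 tags in the rest, a 1.13-fold difference (exact sign-flip permutation test, n = 6, p = 0.03125, adjusted p = 0.0417). MOLT-4 had the largest, with 3.04 tags at its ends and 2.43 in its rest, and KOPT-K1 the smallest, with 2.79 and 2.66. Averaged over the 3 density classes the log2 difference was 0.070, against 0.18 without classes, and the call was lost (exact sign-flip permutation test, p = 0.0625). The median fold enrichment given by the authors was 6.68 ± 0.17 at the ends and 7.11 ± 0.44 in the rest, lower at the ends in 6 of 6 lines (mean log2 ratio −0.087 ± 0.056, exact sign-flip permutation test, p = 0.03125, adjusted p = 0.0417). Among regions called in all 6 lines the fold was still lower at the ends, at −0.12 on the log2 scale, whereas the background was −0.025 with p = 0.656 in the exact sign-flip permutation test. The higher background thus did not hold among the shared regions.

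Over all intervals, peak height itself showed no common direction. The median pileup was 25.7 ± 4.8 tags at the ends and 24.5 ± 3.0 in the rest, higher in 4 lines, equal in KOPT-K1 and lower in CCRF-CEM (mean log2 ratio 0.054 ± 0.125, exact sign-flip permutation test, p = 0.3125, adjusted p = 0.357). CCRF-CEM had 18 tags at its ends and 20 in its rest, and TALL-1 had 33 and 29. The median −log10 p differed by −0.36 ± 1.28 (exact sign-flip permutation test, n = 6, p = 0.53125, adjusted p = 0.531), being lower at the ends in 4 lines and higher in MOLT-4 and TALL-1. Among regions called in all 6 lines alone, pileup was lower at the ends in 5 lines and higher in 1 (mean log2 ratio −0.12, exact sign-flip permutation test, p = 0.156). The −log10 p difference in those regions was −2.96 ± 2.90, again lower in 5 lines and higher in 1 (exact sign-flip permutation test, p = 0.0625).

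Region density and sharing were graded along the chromosome. Distances were taken from the outermost peak coordinate, so the outermost bin starts on a peak at each end by construction. Merged regions numbered 29.6 per Mb in the outermost 0.5 Mb, 25.7 per Mb from 0.5 to 1 Mb, 21.6 per Mb from 1 to 2 Mb, 16.3 per Mb from 2 to 5 Mb, 15.4 per Mb from 5 to 10 Mb and 13.4 per Mb beyond. The share called in all 6 lines followed the same order, with 34.1%, 28.5%, 28.4%, 24.96%, 22.96% and 21.8%. The share of line-only regions was 29.6% in the outermost bin and 44.2% beyond 10 Mb. In CCRF-CEM the line-only share was 13.1% in the outermost 0.5 Mb and 30.5% beyond 10 Mb. In TALL-1 it was 9.01% and 9.49%. In MOLT-4 it was 6.49% in the outermost bin, highest at 12.2% from 2 to 5 Mb, and 9.37% beyond 10 Mb. The region just inside the 2 Mb limit, on chromosome 14 at 105281948 to 105282910, was called in all 6 lines with pileups of 32 to 66. The one just outside, on chromosome 17 at 2239551 to 2240044, was called in 4 lines with pileups of 14 to 32.

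**Figure D3:**
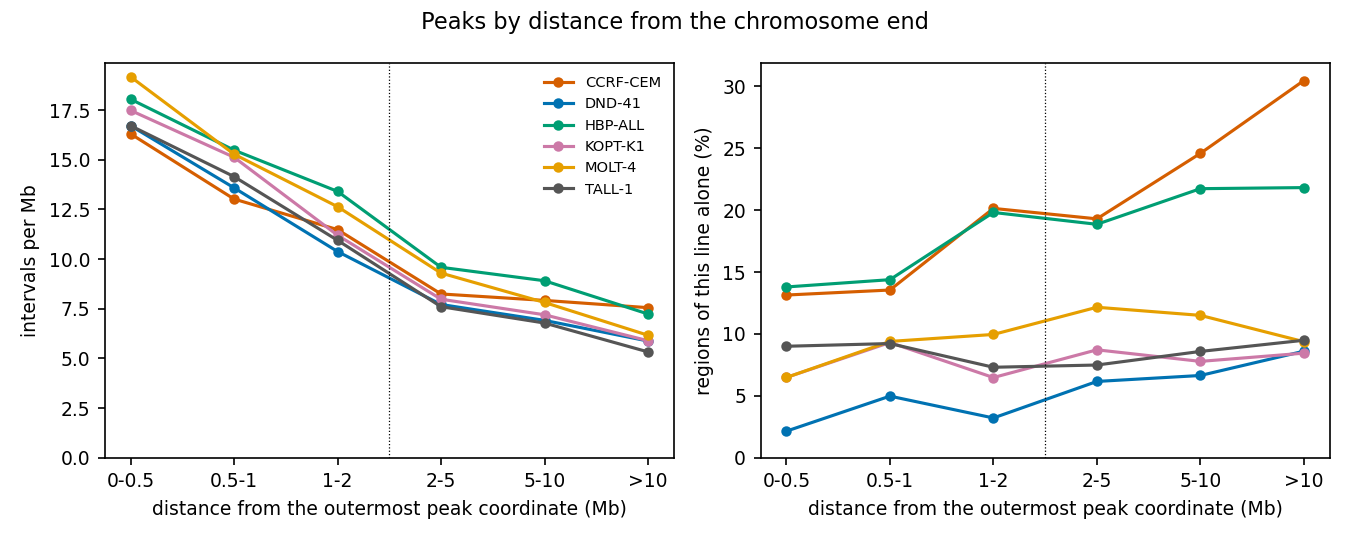
Intervals per Mb (left) and percent of regions held by that line alone (right) for each line, in bins of distance in Mb from the outermost peak coordinate; the dotted line marks 2 Mb. Densities of all 6 lines lay between 16.3 and 19.2 in the outermost bin, and the line-only share of CCRF-CEM was 13.1% there and 30.5% beyond 10 Mb.

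The 39 ends were far from alike. They held between 16 and 87 regions each, with a median of 46, and the 10 fullest ends held 753, or 39.2% of all. Regions per Mb exceeded those of the rest of the same chromosome at 35 of 39 ends. The share called in all 6 lines exceeded that of the rest of the chromosome at 23 of 39 ends, and the line-only share fell below it at 28. In the 10 fullest ends 36.5% of regions were called in all lines and 26.4% in 1 line, and in the other 29 ends these shares were 26.0% and 39.1%. The 17 short-arm ends had 32.7% called in all lines, and the 22 long-arm ends had 28.5%.

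The fullest end was that of 8q, with 87 regions, of which 41 (47.1%, exact interval 36.3% to 58.1%) were called in all 6 lines, against 16.3% in the rest of chromosome 8. The end of 19p had the highest such share, 39 of 80 regions (48.8%), against 36.6% in the rest of chromosome 19. At the end of 16p 27 of 57 regions (47.4%) were called in all lines, against 32.4% in the rest of chromosome 16. At that of 19q 33 of 71 (46.5%) were called in all lines. There 11.3% were line-only, the lowest share of all ends, against 21.6% in the rest of chromosome 19. At the end of 9q, the band that holds NOTCH1, 29 of 65 regions (44.6%) were called in all 6 lines, against 24.3% in the rest of chromosome 9. Line-only regions numbered 16 (24.6%), against 43.0% in that rest. Each line had 43 to 48 intervals at the end of 9q, and the log2 pileup of a line relative to the 6 lines was between −0.17 in KOPT-K1 and 0.43 in MOLT-4. At 17q, the arm that ends near CD7, 29 of 81 regions (35.8%, exact interval 25.4% to 47.2%) were called in all lines. The rest of chromosome 17 had 28.8%, which lies within that interval.

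The end of 3p stood at the other extreme. It held 16 regions, 8 per Mb, against 13.4 per Mb in the rest of chromosome 3. None of the 16 was called in all 6 lines, which allows a share of up to 18.8% at 3 counts (20.6% by the exact interval). In the rest of chromosome 3 this share was 19.96%, which lies within the exact interval, and 46.9% were line-only. At the end of 3p 13 regions (81.2%) were line-only. CCRF-CEM had 10 intervals there, HBP-ALL 6, MOLT-4 2, TALL-1 1, and DND-41 and KOPT-K1 had 0. Of the line-only regions 9 belonged to CCRF-CEM and 4 to HBP-ALL. The end of 4q was next in number of regions, with 20, of which 1 was called in all lines (exact interval 0.127% to 24.9%). At 9p 3 of 23 regions were called in all lines (2.78% to 33.6%), and at 6p 4 of 29 (3.89% to 31.7%). The rest of chromosomes 4, 9 and 6 had 14.1%, 24.3% and 21.1%, each within the interval of its end. The counts at 4q, 9p and 6p are therefore too small to show less sharing there. Regions per Mb lay below the rest of the chromosome at the ends of 3p, 4q, 6p and 6q.

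The end of 14q combined many regions with little sharing. It held 84 regions, 42.0 per Mb. Of these 14 (16.7%, exact interval 9.42% to 26.4%) were called in all 6 lines, against 26.3% in the rest of chromosome 14. The share of the rest lies just within that interval. Lower shares were found at other ends, such as 11q (11.1%) and 2p (11.4%). The immunoglobulin heavy chain genes, which B cells rearrange and which early T cells can rearrange in part, lie in the terminal band of 14q. KOPT-K1 had 49 intervals there, DND-41 45, TALL-1 43, MOLT-4 41, HBP-ALL 31 and CCRF-CEM 30. At 20q the lines spread further, with 55 intervals in MOLT-4 and 49 in TALL-1, while CCRF-CEM had 40, DND-41 had 38, HBP-ALL had 35 and KOPT-K1 had 23. At 21q there were 28 in HBP-ALL and 27 in MOLT-4, but 19 in DND-41, 15 in TALL-1, 10 in KOPT-K1 and 9 in CCRF-CEM.

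**Figure D4:**
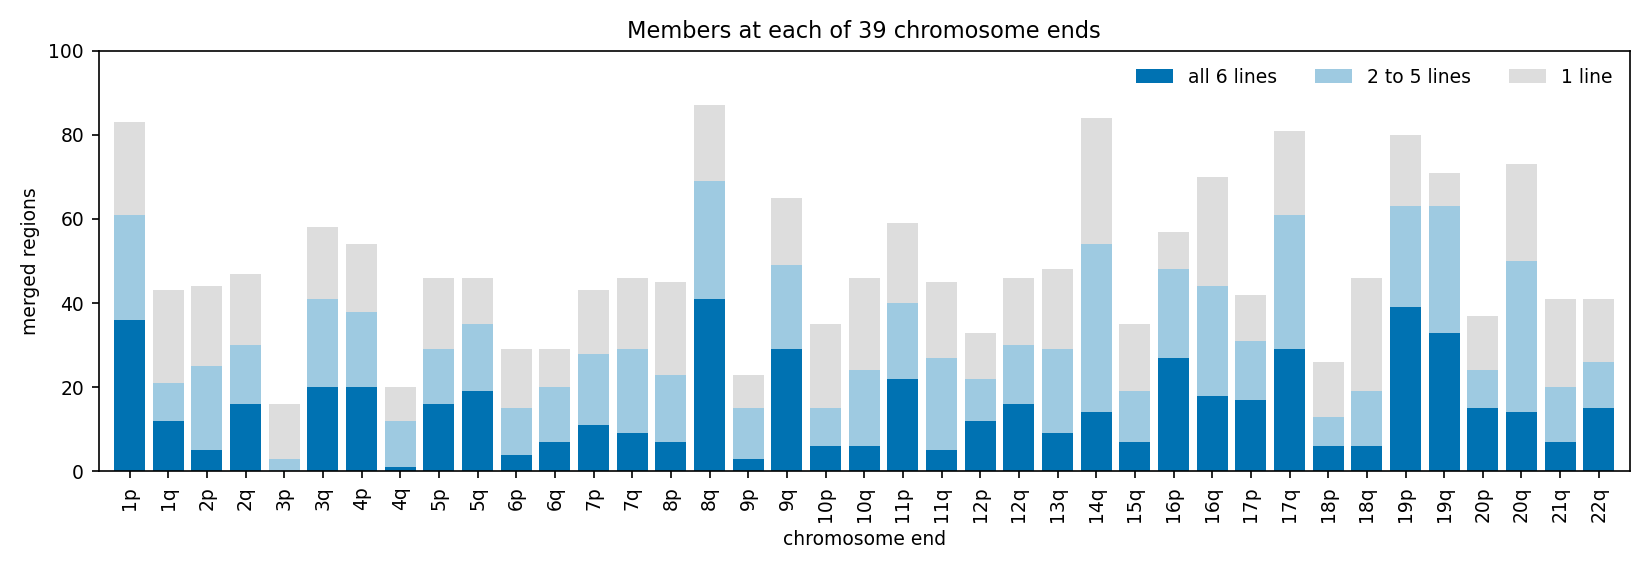
Number of merged regions at each of the 39 chromosome ends, split into those called in all 6 lines, in 2 to 5 lines and in 1 line. The end of 8q held 87 regions and that of 3p 16, none of them called in all lines.

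Peak heights at the shared regions of the ends were compared between lines as relative pileup. This is the log2 pileup of a line minus the average over the 6 lines, shifted so that the median of each line over all shared regions is 0. Since the 6 values are relative, 1 high line pulls the rest down. Over 577 shared regions at the ends with a recovered pileup in each line, the median was −0.30 in CCRF-CEM, against 0.02 in its rest, and 0.24 in MOLT-4, against −0.02 in its rest. It was 0.11 in TALL-1, 0.05 in HBP-ALL, −0.06 in DND-41 and close to 0 in KOPT-K1. At 35 ends with 5 or more such regions, CCRF-CEM lay below the rest of the same chromosome at 25 and MOLT-4 above it at 25. Whether a line has more copies of a stretch or more open chromatin per copy cannot be told apart from peak lists.

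Single ends departed from their own chromosome. At the end of 5q CCRF-CEM stood at −0.76 over 19 regions, against 0.34 in the rest of chromosome 5. At the end of 5p CCRF-CEM was at −0.46 and at that of 8q at −0.45, where the rest of the chromosomes stood at 0.34 and 0.16. At 20q KOPT-K1 was at −0.83 over 14 regions, against −0.14 in the rest of chromosome 20, while TALL-1 was at 0.91, its highest value at any end, against 0.52 in the rest of the chromosome. At 10q HBP-ALL was at −0.86 over 6 regions, against −0.04 in the rest of chromosome 10. At 21q MOLT-4 stood at 0.996 over 7 regions, against 0.31 in the rest of chromosome 21, and KOPT-K1 at −0.97, against −0.67. TALL-1 was at −0.12 at the same end, against 1.07 in the rest of chromosome 21. Of 210 combinations of line and end, 25 lay beyond 0.5 in either direction, and 12 differed from the rest of their chromosome by more than 0.5. None of these differences could be tested with 1 library per line.

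**Figure D5:**
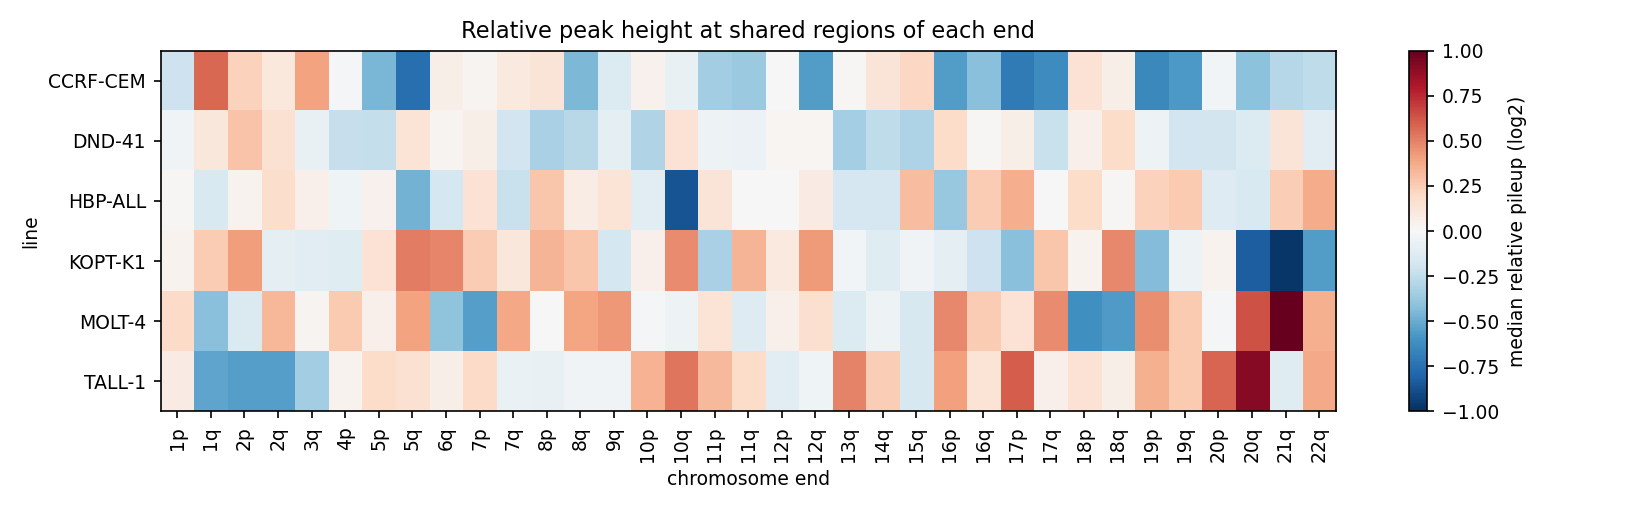
Median relative pileup (log2, colour scale from −1 to 1) of each line, in rows, at the 35 chromosome ends with 5 or more regions called in all 6 lines, in columns. CCRF-CEM was at −0.76 at 5q, HBP-ALL at −0.86 at 10q, and KOPT-K1 at −0.97 and MOLT-4 at 0.996 at 21q.

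The call rate showed how often a line had a peak where at least 3 of the other 5 had one. MOLT-4 had a peak at 90.7% of 926 such regions at the ends (exact interval 88.7% to 92.5%), against 85.6% in the rest. TALL-1 had 82.2% at the ends and 76.6% in the rest, KOPT-K1 had 87.0% and 83.6%, and DND-41 had 85.7% and 83.3%. CCRF-CEM had 74.1% at the ends and 76.5% in the rest, and HBP-ALL had 83.1% and 84.6%. The rate was thus higher at the ends in 4 lines and lower in 2. The interval covers counting error only, and the difference was not tested within a line. Of the 149 regions at the ends that 1 line alone lacked, CCRF-CEM lacked 53 (35.6%), HBP-ALL 28 (18.8%) and MOLT-4 7 (4.70%). In the rest these shares were 37.2%, 10.8% and 8.67%.

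Single regions illustrate the range. The region whose lowest rank among the 6 lists was best lay on chromosome 4 at 51310 to 52420, 23.4 kb from the outermost peak of 4p. Its −log10 p was 188 in CCRF-CEM, 178 in TALL-1 and 159.5 in DND-41. The other values were 92.9 in HBP-ALL, 91.7 in KOPT-K1 and 65.6 in MOLT-4. It stood on a high local background, with 16.3 tags in HBP-ALL, 18.3 in KOPT-K1 and 12.3 in MOLT-4. In CCRF-CEM, DND-41 and TALL-1 no pileup below 250 tags fitted the authors' values, so no background was recovered for them. Only 565 bp away, at 52986 to 53398, lay the strongest line-only peak of TALL-1 near any end, with a −log10 p of 89.4 but a fold of 4.62. The next strongest shared region lay on chromosome 10 at 1094592 to 1095654, with pileups of 139 in TALL-1, 108 in KOPT-K1, 105 in DND-41 and 100 in HBP-ALL. CCRF-CEM had 90 and MOLT-4 had 83. The third, on chromosome 4 at 775394 to 776199, had pileups of 75 to 85 in the 6 lines.

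Line-only peaks included isolated ones. That of CCRF-CEM with the highest −log10 p (40.1) lay on chromosome 3 at 1651088 to 1651506, within the sparse end of 3p, with a pileup of 41 over a background of 1.92 and 265082 bp from the nearest peak of any line. That of DND-41, on chromosome 16 at 60893 to 61129, was the outermost peak of 16p, 237 bp wide, with a pileup of 39. HBP-ALL had its strongest on chromosome 15 at 101120700 to 101121001 (pileup 33) and MOLT-4 on chromosome 8 at 637735 to 638433 (pileup 32). That of KOPT-K1, on chromosome 1 at 2516470 to 2517256 (pileup 50), lay 385 bp from another region.

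Some regions were called in 5 lines and lacking in 1. On chromosome 2, at 242295375 to 242296116, TALL-1 was the line without a call, while pileups were 76 in MOLT-4, 73 in DND-41 and 69 in CCRF-CEM, with 65 for HBP-ALL and 41 for KOPT-K1, and its nearest peak lay 39620 bp away. CCRF-CEM had none on chromosome 12 at 133706566 to 133707546, where the others had 36 to 91, and HBP-ALL none on chromosome 13 at 114238593 to 114239799, where the others had 34 to 87. KOPT-K1 had none on chromosome 20 at 61903721 to 61904398, with 19 to 40 in the others, and DND-41 none on chromosome 3 at 195906334 to 195907076, with 26 to 37. The strongest region that MOLT-4 lacked, on chromosome 1 at 568403 to 569100, had backgrounds of 21.8 to 26.9 tags in the other lines, and a MOLT-4 peak lay 259 bp away. Where a line lacks a peak, the signal there did not pass the authors' cutoff.

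Shared peaks reached close to the outermost peak coordinate at most ends. That coordinate is set by a peak of these same lists, so some region always lies there, and its distance from the telomere was not measured. On 12p it lay at position 498204 of chromosome 12. A region called in all 6 lines lay within 500 kb of the outermost peak coordinate at 37 of 39 ends, at a median distance of 31.3 kb over the 38 ends that have one. At 8 ends (1q, 2q, 4p, 5q, 6q, 8q, 12p and 14q) that region was itself the outermost one, and at 13 ends the outermost region was line-only. On 14q, at 107280791 to 107281426, its pileups were 36 in TALL-1, 35 in HBP-ALL, 27 in KOPT-K1, 25 in DND-41, 24 in MOLT-4 and 18 in CCRF-CEM. The farthest lay at 7p, 617 kb inward, on chromosome 7 at 766033 to 766992, followed by 9p, 407 kb inward, on chromosome 9 at 469779 to 470667. At that region of 9p CCRF-CEM had a pileup of 7 and the other lines 19 to 48. The 3 widest regions lay on 13q and 14q, with 1985 bp at 113862568 to 113864552 on chromosome 13, 1907 bp at 105956133 to 105958039 on chromosome 14 and 1756 bp at 115046199 to 115047954 on chromosome 13. Their pileups in the 6 lines were 34 to 72, 88 to 139 and 60 to 118, with the highest in TALL-1, whose median pileup (33 at the ends, 29 in the rest) is also the highest of the 6.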

How the data were processed

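ATAC-seq peak lists of 6 T-ALL lines, 1 per library, were used as deposited. The submitters' processing notes name build hg19, MACS2 2.1.1.2016030, Bowtie2, SAMtools and Picard; the sources used here give neither their settings and order nor any shift for the Tn5 cut. The deposited lists have no header and were read as narrowPeak: per summit, the authors' columns hold a score, a fold (ratio of signal to local background), a −log10 p-value and a −log10 q-value. In all but 7 of 139886 lines the deposited score is the −log10 p multiplied by 10 and rounded down.

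Where several summits have the same interval, the one with the highest −log10 p was kept. Intervals on chromosomes 1 to 22 were merged when they shared 1 bp or more, and an interval was placed by the midpoint of its merged region. Pileups were recovered as whole tags that fit the authors' fold and −log10 p (tolerance 0.001, below 250 tags). The regions and lists examined were chosen with earlier results of these data known. Named regions follow a rule: strongest, line-only, singly missed, widest and outermost members, and those beside the 2 Mb limit; ends named besides the fullest, emptiest and most shared, and band genes, were chosen after their values were seen. Alternatives are listed in the closing section; restricting intervals to regions called in all 6 lines was added after seeing the data. Regions prone to artefacts were not filtered out, and the part of duplicated sequence in any result was not tested. Merging, recovery and the sign-flip test were tested on simulated data. Software was Python 3.11.15 with pandas 2.3.3, numpy 2.4.6, matplotlib 3.10.9 and scipy 1.17.1.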

Additional observations from a re-analysis of the deposited data

Results flagged for a closer look

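Values of 1 line far from the other 5 were looked for with Dixon's gap ratio over the 6 lines in 46 sets of values, of which chance would flag about 2.3. There were 4. The difference in line-only share between ends and rest was −13.2 percentage points in CCRF-CEM, against −5.02 to −0.93 in the other lines. Relative pileup was −0.55 (log2) in MOLT-4 at the end of 7p over 11 regions, where the rest of chromosome 7 stood at 0.04. It was −0.61 in MOLT-4 at the end of 18p over 5 regions, a value shared by the rest of chromosome 18 (−0.61). It was 0.58 in TALL-1 at the end of 20p over 15 regions, close to the rest of chromosome 20 (0.52).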

How the results depend on the processing

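Each difference between ends and rest was recomputed under up to 12 alternatives: limits of 0.5, 1 and 5 Mb, −log10 p of at least 10, 16039 strongest intervals in every line, 200 bp summit windows, means over chromosomes or 3 density classes, leaving out the outermost 100 kb, counting acrocentric lower ends, chromosomes 1 to 12, and shared regions only. Interval density stayed past the threshold in all 10 it could be given for. Density classes and shared regions give it no span. The summit windows change only how regions are merged and placed. They left density, width, several summits, −log10 p, fold, pileup and background at their main values. For those measures the summit windows are therefore no separate check. The mean share called in all lines stayed higher at the ends in 11 of 11, but 2 lines were lower there with −log10 p of at least 10 and with equal numbers of intervals, and 1 line at 5 Mb and with summit windows. The line-only difference missed the threshold at 5 Mb (−3.53 points), over chromosomes (−2.66) and over density classes (−2.39). Interval width missed it with −log10 p of at least 10 (0.035, log2) and over chromosomes (0.041), and turned to −0.061 in shared regions. Local background missed it over density classes (0.070) and turned to −0.025 in shared regions. Fold missed it at 0.5 Mb (−0.047), and the multi-summit share in shared regions (2.71 points). Pileup, never past it, turned to −0.016 with −log10 p of at least 10 and −0.12 in shared regions. The −log10 p difference, never past it, was −2.96 in shared regions and turned to 0.18 on chromosomes 1 to 12 and 0.55 at 0.5 Mb. The causes were not tested.

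Leaving out each line in turn leaves 5, with a smallest p of 0.0625, so no call can be kept. The ranges were 1.05 to 1.15 (log2) for density, −5.49 to −3.87 points for the line-only share, 0.052 to 0.069 for width, 3.05 to 3.84 points for several summits, −0.098 to −0.066 for fold, 0.15 to 0.20 for background, 0.028 to 0.095 for pileup, −0.66 to 0.037 for −log10 p and 4.82 to 8.02 points for the share called in all lines; the lowest of the last and the turn to 0.037 came without CCRF-CEM. No paired analysis was possible because each line has 1 library, so no replicate number links samples; the tests given do pair ends and rest within a library. Depth is unknown, and a missing peak near the threshold cannot be told from closed chromatin.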

Other observations

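Among regions held by exactly 2 lines, HBP-ALL and MOLT-4 alone shared 33 of the 226 at the ends (14.6%), against 12.1% of those in the rest, and MOLT-4 and TALL-1 shared 20 (8.85%), against 4.21%. CCRF-CEM and DND-41 shared 11 (4.87%), against 8.72% in the rest, and DND-41 and KOPT-K1 9 (3.98%), against 7.57%. These counts are small and were not tested. At the ends of 18p and 18q MOLT-4 had the relative pileups −0.61 and −0.57, close to each other.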
